A study of Mus musculus with 10 samples.

Results

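8 genes of cholesterol supply were followed in mouse hearts: Hmgcs1, Idi1, Fdft1, Sqle, Lss and Cyp51, which encode enzymes of cholesterol synthesis, and Insig1 and Srebf2, which encode regulators of the pathway. They were chosen by name, with earlier results of these data known, as the 8 rows of the deposited table that carry these symbols. The table holds 55858 genes, and all 8 were among the 13282 genes tested. None of the 8 encodes an uptake receptor, so genes of uptake were taken from a separate list. The RNA came from 10 mouse heart samples taken at postnatal day 10, with 5 in each group. All samples were labelled MCM; Chmp4bF/F. Mice of the 5 cKO samples received tamoxifen under the skin at 0.1 mg/g on 2 days from postnatal day 0 to delete Chmp4b, a gene for a subunit of the membrane-cutting complex ESCRT-III, and those of the 5 control samples received corn oil. MCM is not spelled out in the labels, and the promoter that drives it is not given in the sources used here. No control sample had tamoxifen, so effects of the drug and of the deletion cannot be told apart.

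Cholesterol is built from acetyl-CoA through mevalonate, the isoprenoid units and squalene, which is closed into lanosterol and trimmed to cholesterol. When sterol in the endoplasmic reticulum falls, the transcription factor SREBP-2, encoded by Srebf2, is carried by SCAP to the Golgi, cut free and sent to the nucleus, where it switches on genes of cholesterol synthesis and uptake. INSIG proteins hold SCAP and SREBP back when sterol is plentiful, and Insig1 is itself an SREBP target. In muscle cells cholesterol is a main lipid of the surface membrane and of the T-tubules that fold in from it. Tamoxifen is also known to bind EBP, the sterol isomerase of the late pathway.

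Values are TPM, transcript abundances corrected for gene length that add up to 1000000 in every library. In these hearts mitochondrially encoded transcripts took up 50.005% to 59.4% of the total in controls against 35.5% to 41.5% in cKO, and the log2 fold change of the median tested gene was 0.63 in TPM as deposited. Each library was therefore divided by a size factor (scaled TPM), which gives values relative to the median gene, and TPM as deposited is given beside it. The targeted gene Chmp4b had a scaled TPM of 60.5 ± 6.47 (SD, n = 5) in controls against 29.3 ± 1.37 after deletion (SD, n = 5), a ratio of 0.485 (two-sided exact permutation p = 0.00794, the smallest that 5 against 5 allows). As deposited, Chmp4b had 47.4 ± 8.61 TPM in controls against 38.2 ± 1.42 in cKO (SD, n = 5), and the groups overlapped. Xist was at 47.6 to 65.9 TPM in cKO replicates 1, 5 and 7 and at no more than 0.120 TPM in the other 7 libraries. The control group thus held no library with Xist above 1 TPM. The Y-linked Ddx3y was at no more than 0.0792 TPM in those cKO replicates and at 16.7 to 32.8 TPM in the other 7 libraries. Sex as read from these genes was unbalanced between the groups, so it is partly confounded with the deletion.

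The region before the start of the gene is shown for all 6 members that have a window, because genes that SREBP-2 drives are known to carry sterol regulatory elements with boxes for NF-Y and Sp1 close by. Windows are RefSeq's (GRCm38.p6, 250 bases before to 50 after the start). Sqle and Fdft1 have none in the table. Each sequence runs 5′ to 3′ on the strand of the gene and ends before any GENCODE M21 start, so boxes that lie further on in the window are not shown. These are boxes of Hmgcs1 and Idi1 (CCAAT and GGGCGG), Cyp51 (CCAAT) and Srebf2 (GGGCGG). Capitals mark TCACCCCAC (a sterol element), CCAAT (the NF-Y box), GGGCGG (the GC box of Sp1) and CACGTG (an E-box), on either strand.
Hmgcs1 (chr13:119690101-119690350, plus strand): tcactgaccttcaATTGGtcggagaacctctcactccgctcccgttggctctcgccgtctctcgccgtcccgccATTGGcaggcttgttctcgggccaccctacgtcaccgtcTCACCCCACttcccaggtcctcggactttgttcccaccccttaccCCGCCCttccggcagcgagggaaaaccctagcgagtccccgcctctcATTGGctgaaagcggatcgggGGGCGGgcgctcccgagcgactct
Idi1 (chr13:8885356-8885500, plus strand): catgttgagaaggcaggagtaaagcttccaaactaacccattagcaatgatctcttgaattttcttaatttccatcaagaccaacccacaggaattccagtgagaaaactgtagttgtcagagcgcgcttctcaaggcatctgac
Lss (chr10:76531355-76531587, plus strand): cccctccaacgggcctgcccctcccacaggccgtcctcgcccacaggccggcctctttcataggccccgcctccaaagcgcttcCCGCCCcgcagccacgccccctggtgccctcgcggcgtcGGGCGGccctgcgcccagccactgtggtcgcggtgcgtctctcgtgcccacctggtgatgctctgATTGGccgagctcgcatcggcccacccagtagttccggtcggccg
Cyp51 (chr5:4104747-4104947, minus strand): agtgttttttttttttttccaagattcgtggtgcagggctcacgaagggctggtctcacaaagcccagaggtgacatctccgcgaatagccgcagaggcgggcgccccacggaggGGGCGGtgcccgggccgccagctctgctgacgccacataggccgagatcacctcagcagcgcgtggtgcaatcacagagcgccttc
Insig1 (chr5:28071162-28071362, plus strand): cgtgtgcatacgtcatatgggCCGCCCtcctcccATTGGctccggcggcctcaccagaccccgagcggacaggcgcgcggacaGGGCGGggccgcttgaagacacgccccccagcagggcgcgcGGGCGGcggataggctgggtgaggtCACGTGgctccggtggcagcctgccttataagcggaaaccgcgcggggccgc
Srebf2 (chr15:82147019-82147180, plus strand): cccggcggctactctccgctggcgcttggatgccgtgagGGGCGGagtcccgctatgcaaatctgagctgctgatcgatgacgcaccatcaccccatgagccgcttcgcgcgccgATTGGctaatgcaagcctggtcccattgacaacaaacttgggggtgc

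All 8 members are protein-coding genes on GRCm38 (GENCODE M21), on 5 chromosomes. On the plus strand lie Hmgcs1 (chr13:119690379-119708260), Idi1 (chr13:8885501-8892451), Sqle (chr15:59315077-59331192), Lss (chr10:76531588-76557138), Insig1 (chr5:28071363-28078662) and Srebf2 (chr15:82147181-82205379). Fdft1 (chr14:63145150-63179578) and Cyp51 (chr5:4081145-4104746) lie on the minus strand. Values cover whole genes and tell no exon or isoform apart.

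The NF-Y box CCAAT stood in all 6 windows and in 37.4% of all 32851 promoter windows of the same length. The GC box GGGCGG also stood in all 6, against 35.7% of all windows. The sterol element TCACCCCAC was found in Hmgcs1 alone, starting 137 bases before the start, and in 0.551% of all windows. The looser form TCACNCCAC, which includes the first, likewise matched Hmgcs1 alone and 1.24% of all windows. The E-box CACGTG stood in Insig1 and in 7.15% of all windows. Among the 12 other synthesis enzymes with a window, 11 held CCAAT, 11 held GGGCGG and 3 held CACGTG, and 0 held TCACCCCAC or TCACNCCAC. These matches describe letters in the window and show no binding.

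All 8 members were higher in cKO hearts, and for each of them the 5 cKO values lay above the 5 control values, both on the scaled values and as deposited. Scaled ratios of group means ran from 1.55 for Hmgcs1 to 3.93 for Cyp51. Limma called 8 of 8 higher at an adjusted p under 0.05, where 20.8% of the 13282 tested genes were called higher, and 0 lower (0 also at an unadjusted p under 0.05 and by the exact permutation test). Groups without overlap and higher in cKO were found for 15.8% of all tested genes on scaled values and for 62.5% as deposited. As deposited 8 of 8 were also called higher, where 76.5% of all tested genes were and 3.46% were called lower. The median log2 fold change of the members was 1.19 on scaled values, against 0.01 for all tested genes, and 1.88 against 0.63 as deposited. Heart tissue was sampled in bulk, so fewer or more cells of a type and a changed amount of RNA per cell cannot be told apart.

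**Figure D1:**
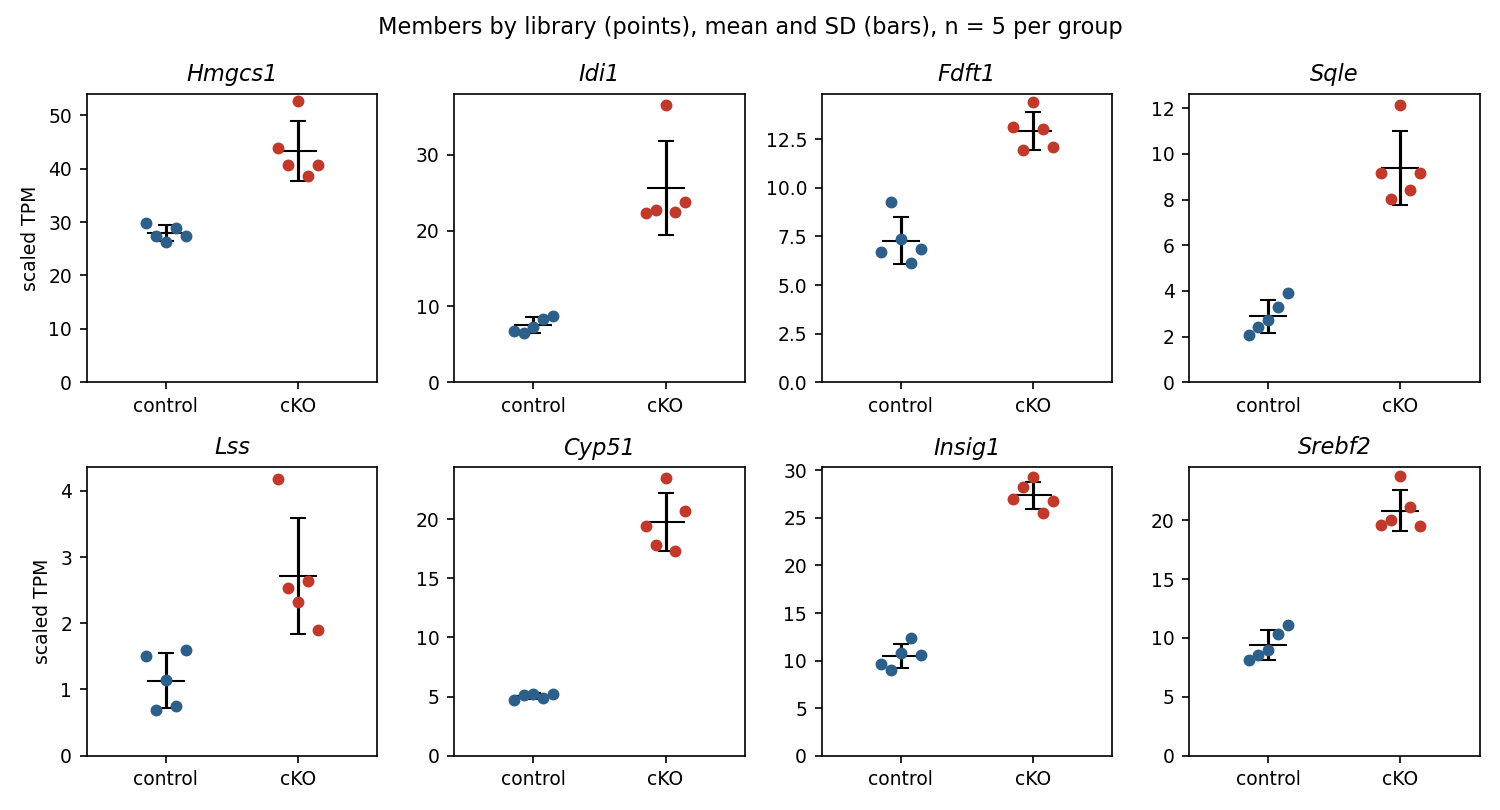
Scaled TPM (vertical axes, from 0) of the 8 members in each library, with points for single libraries and bars for the mean and SD of 5 control and 5 cKO heart samples. In every panel the lowest cKO point lies above the highest control point, and cKO replicate 5 (the highest cKO point in 7 panels, all but Lss) stands furthest apart for Idi1 at 36.6.

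Hmgcs1 encodes the cytosolic HMG-CoA synthase, which acts in the early steps that lead to mevalonate. Its scaled TPM was 43.9, 40.6, 52.8, 38.6 and 40.7 in cKO replicates 1, 3, 5, 6 and 7, and 29.9, 27.4, 26.2, 28.9 and 27.4 in control replicates 4, 6, 8, 9 and 13. It was the most abundant member in both groups and showed the smallest ratio, with a log2 fold change of 0.61 ± 0.083 (SE, adjusted p = 0.000126). Idi1 encodes the isomerase that interconverts the pair of isoprenoid building blocks. Its scaled TPM was 22.3, 22.8, 36.6, 22.4 and 23.8 in cKO and 6.80, 6.48, 7.30, 8.39 and 8.78 in control libraries, in the same order. Of the cKO values, 4 lay within 22.3 to 23.8, and replicate 5 stood above them. The log2 fold change of Idi1 was 1.62 ± 0.14 (SE, adjusted p = 3.88e-06), and 1.48 without cKO replicate 5, the lowest value on leaving out 1 library.

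Fdft1 and Sqle act at the step that commits isoprenoids to sterols: Fdft1 encodes squalene synthase, and Sqle encodes squalene epoxidase, a second point of control of the pathway. Scaled TPM of Fdft1 was 13.1, 12.0, 14.4, 13.02 and 12.1 in cKO and 6.71, 9.29, 7.35, 6.15 and 6.87 in control libraries. Control replicate 6 was the highest control, still under every cKO library. The log2 fold change of Fdft1 was 0.76 ± 0.099 (SE, adjusted p = 8.53e-05). Its gene overlaps the protease gene Ctsb on the opposite strand, which had mean TPM of 112 in controls against 218 in cKO. The sources used here give no strand setting, so it is unknown how reads where both genes overlap were assigned. Sqle was at 9.16, 8.03, 12.1, 8.41 and 9.17 scaled TPM in cKO and at 2.09, 2.43, 2.72, 3.28 and 3.89 in control libraries. Every cKO value was more than 8 and every control value under 4, with a log2 fold change of 1.43 ± 0.14 (SE, adjusted p = 9.99e-06).

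Lss encodes lanosterol synthase, which closes the rings of the sterol, and was the least abundant member. Its scaled TPM was 4.18, 2.53, 2.33, 2.63 and 1.89 in cKO and 1.5005, 0.691, 1.15, 0.745 and 1.59 in control libraries. The gap between the groups was narrow, from 1.59 to 1.89. Its log2 fold change was 0.79 ± 0.17 (SE, adjusted p = 0.00344), which the pseudocount of 1 understates: the ratio of means was 2.39. In 3 of the 5 control libraries Lss was under 1 TPM as deposited, so the filter on low values was passed with the help of all 5 cKO libraries. Cyp51 encodes lanosterol 14-alpha-demethylase, the cytochrome P450 that begins the trimming of lanosterol. It was at 19.4, 17.8, 23.5, 17.3 and 20.6 scaled TPM in cKO and at 4.68, 5.12, 5.19, 4.91 and 5.23 in control libraries. The controls were nearly level, and the log2 fold change of 1.78 ± 0.084 (SE, adjusted p = 7.39e-08) was the highest of the 8. Cyp51 overlaps Akap9 on the opposite strand, with mean TPM of 4.14 in controls against 8.17 in cKO.

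Insig1 encodes the sterol sensor that retains SCAP and SREBP in the endoplasmic reticulum. Its scaled TPM was 27.0, 28.2, 29.3, 25.5 and 26.8 in cKO and 9.63, 8.98, 10.8, 12.4 and 10.6 in control libraries. The cKO libraries differed little among themselves, and the log2 fold change was 1.31 ± 0.082 (SE, adjusted p = 5.11e-07). Srebf2 encodes SREBP-2, the main transcription factor of the pathway, which also acts on its own gene. It was at 19.6, 20.0, 23.7, 21.2 and 19.5 scaled TPM in cKO and at 8.13, 8.53, 8.99, 10.3 and 11.1 in control libraries. Its lowest cKO value was well above the highest control, and the log2 fold change was 1.07 ± 0.091 (SE, adjusted p = 4.00e-06). Srebf2 holds the microRNA gene Mir33 in its span, which the table lists at 0 in both groups.

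**Figure D2:**
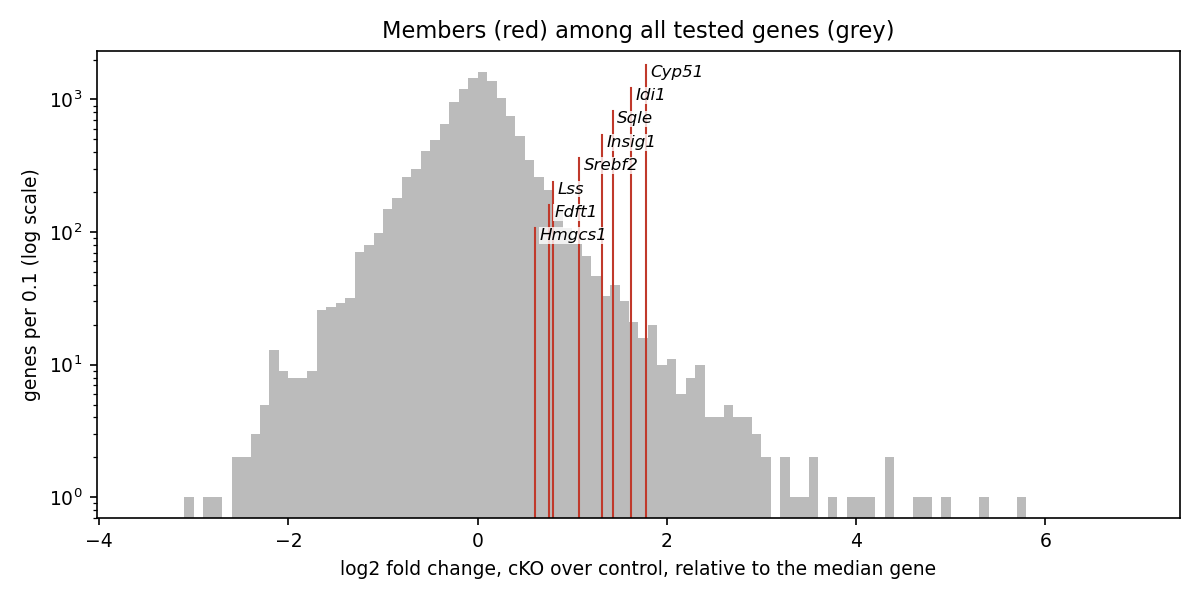
Number of genes (log axis) by log2 fold change of cKO over control relative to the median gene, for all 13282 tested genes in grey, with red lines at the 8 members. The members stand between 0.61 (Hmgcs1) and 1.78 (Cyp51), all in the right shoulder, and genes with far larger rises lie to their right.

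Cyp51 ranked 111 from the top among the 13282 tested genes by scaled fold change, Idi1 ranked 141, Sqle 202, Insig1 243, Srebf2 384, Lss 707, Fdft1 777 and Hmgcs1 1131. The pseudocount of 1 lowers the rank of Lss, whose scaled ratio of means was 2.39, against 2.21 for Srebf2. The order of levels within the set shifted with the sizes of these changes. In control hearts Hmgcs1 (28.0 scaled TPM) was followed by Insig1 (10.5), Srebf2 (9.42), Idi1 (7.55) and Fdft1 (7.28), each overlapping its neighbour in library values except Hmgcs1. Cyp51 (5.03), Sqle (2.88) and Lss (1.13) came last, each apart from its neighbours. In cKO hearts Hmgcs1 (43.3) stood apart, then came Insig1 (27.4), Idi1 (25.6), Srebf2 (20.8) and Cyp51 (19.7), which overlapped from one to the next. Fdft1 (12.9) and Sqle (9.38) overlapped below them, and Lss (2.71) was again the lowest. Cyp51 thus passed Fdft1, which it had stood under in control hearts.

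In TPM as deposited the log2 fold changes of the members ran from 1.26 for Lss to 2.43 for Cyp51. The pseudocount of 1 understates the value of Lss: its ratio of mean TPM was 4.11, against 2.60 for Hmgcs1. Hmgcs1 went from 21.8 ± 1.57 to 56.7 ± 9.60 TPM, Insig1 from 8.18 ± 1.24 to 35.7 ± 3.48 and Cyp51 from 3.93 ± 0.444 to 25.8 ± 4.03 (SD, n = 5). Idi1 went from 5.87 ± 0.696 to 33.4 ± 8.97 TPM and Srebf2 from 7.32 ± 0.908 to 27.1 ± 2.88 (SD, n = 5). These rises include the shift of 0.63 in the median gene.

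Ratios between members within a library do not depend on the scaling, and they differed between groups without overlap in 13 of 28 pairs. The share among pairs of all tested genes was not computed, so this count has no background to be read against. On the log2 scale, the ratio of Hmgcs1 to Cyp51 was 2.48 ± 0.14 (SD, n = 5) in control and 1.13 ± 0.087 (SD, n = 5) in cKO hearts. Fdft1 over Cyp51 went from 0.52 ± 0.21 to -0.60 ± 0.14, and Insig1 over Srebf2 from 0.16 ± 0.15 to 0.40 ± 0.10 (SD, n = 5). By contrast Sqle over Idi1 stood at -1.42 ± 0.19 in control and -1.43 ± 0.12 in cKO hearts (SD, n = 5), with overlap. None of the 7 ratios with Lss was without overlap.

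After each group's mean was subtracted, 19 of 28 pairs of members had a positive Pearson correlation over the 10 libraries, with a median of 0.32 and a range of -0.56 (Insig1 with Fdft1) to 0.92 (Sqle with Srebf2). Within the 5 cKO libraries alone the median was 0.74 (23 of 28 positive), and within the 5 control libraries 0.07 (16 of 28 positive). Lss correlated at 0.05 or under with each of the other 7. In all, 7 members were above their group mean in cKO replicate 5. Without that library the median over the other 9 was 0.048 and 16 pairs were positive. Points share libraries and a size factor, and these values are a description.

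**Figure D3:**
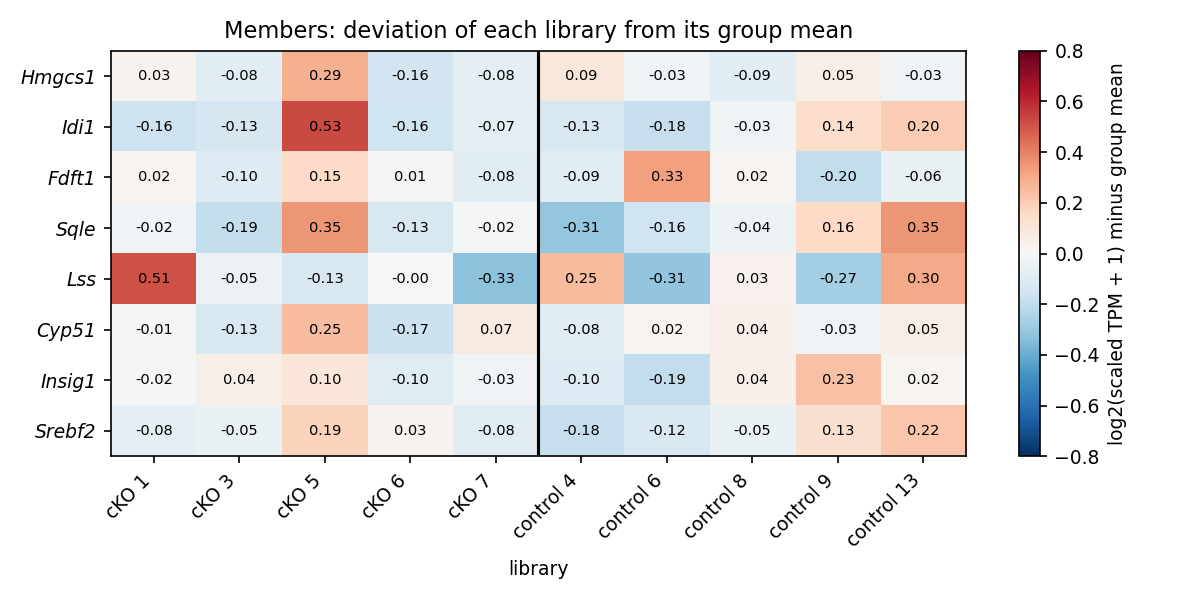
Deviation of log2(scaled TPM + 1) from the group mean for each member (rows) in each library (columns), red above and blue below the mean. cKO replicate 5 is above the mean for every member except Lss, and Lss is highest in cKO replicate 1.

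Of the 8409 other tested genes with a mean of at least 5 TPM (predicted models left out), those whose within-group deviations followed the members' mean most closely were Cyp20a1 (Pearson r = 0.91 over 10 libraries), Adpgk (0.91), Tnc (0.90), Dedd (0.89) and Mob1a (0.89). Without cKO replicate 5 their correlations were between 0.56 (Mob1a) and 0.83 (Dedd). These genes are the top of 8409 correlations over 10 libraries, so their values are high by selection. Over the 10 libraries the synthesis enzyme genes Fdps, Msmo1 and Mvd stood at 0.55, 0.62 and 0.26. The median of all tested genes was -0.027.

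The 13 other enzymes of cholesterol synthesis counted here had 6 genes called higher, 7 not called and 0 lower by limma on scaled values (1 lower at an unadjusted p under 0.05, and 1 by the exact permutation test, Tm7sf2 in both). Their median log2 fold change was 0.39. Together with the 6 enzymes above, 12 of 19 were called higher, against 20.8% of all tested genes. Members and list were chosen with earlier results of these data known, so these counts are a description. As deposited, 12 of the 13 were called higher, where 76.5% of all tested genes were. Fdps, which encodes farnesyl diphosphate synthase at the step between Idi1 and Fdft1, showed the highest ratio of these 19 enzymes, 4.37, from 16.6 ± 1.81 to 72.6 ± 11.4 scaled TPM (SD, n = 5). Its log2 fold change was 2.06 ± 0.11 (SE, adjusted p = 1.85e-07). Msmo1, whose enzyme acts after Cyp51, and Mvd, which encodes the decarboxylase before Idi1, rose by 1.41 and 1.01 (adjusted p = 1.44e-05 and 2.99e-05). Sc5d, which encodes a desaturase of the late pathway, rose by 0.55 (adjusted p = 0.000357).

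**Figure D4:**
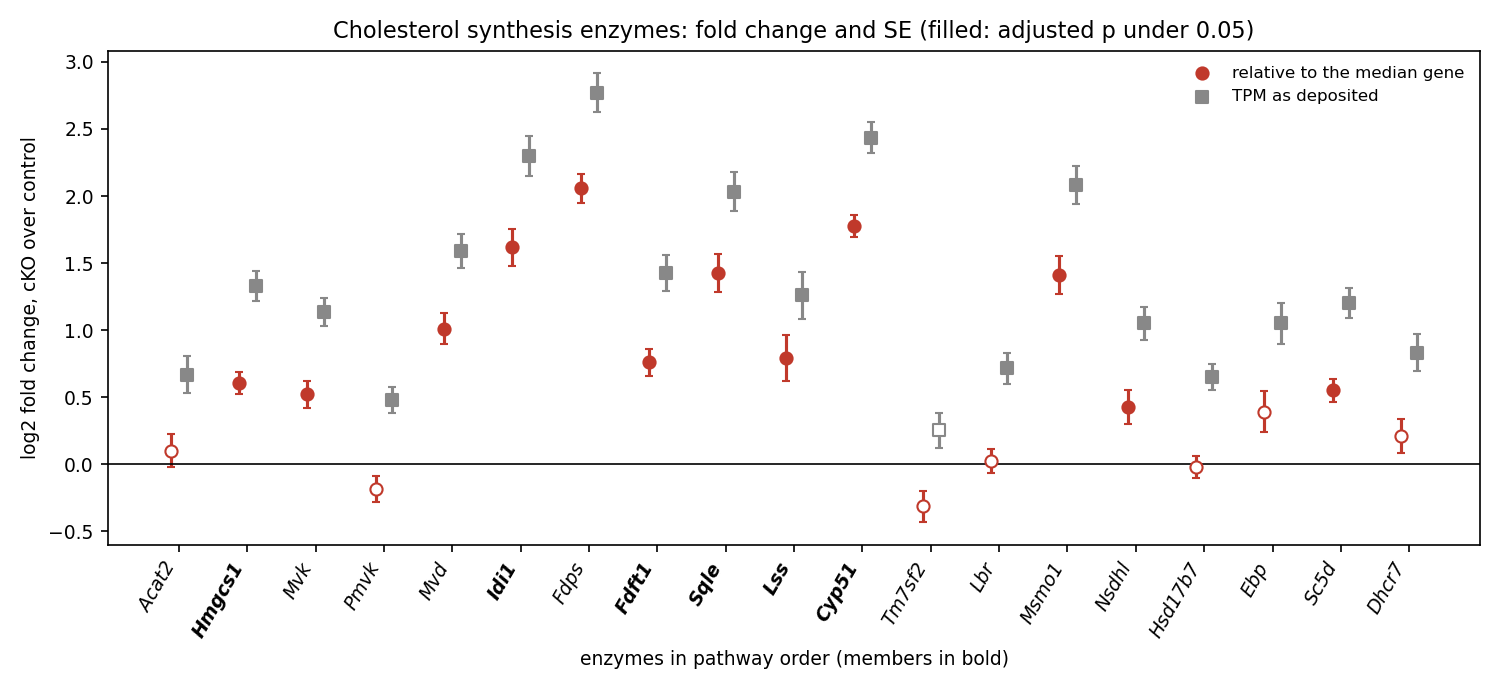
Log2 fold change of cKO over control with its SE for 19 enzymes in the order of the pathway, with members in bold, red circles relative to the median gene and grey squares as deposited. Filled symbols passed an adjusted p of 0.05, and 12 of the 19 circles are filled, with Fdps at 2.06 and Cyp51 at 1.78 on top.

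Ebp, the isomerase gene, went from 6.91 ± 0.739 to 9.60 ± 2.62 scaled TPM (SD, n = 5), with overlap, and was not called (log2 fold change 0.39 ± 0.15 SE, adjusted p = 0.062). Without cKO replicate 1 or 6 Ebp was called, at 0.49 (adjusted p = 0.0187) and 0.47 (adjusted p = 0.0316). Sc5d and Ebp were named after their values were seen.

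Genes that process SREBP or sense sterol showed 1 higher, 2 lower and 7 not called of 10 tested on scaled values, with a median of 0.18, where 20.8% of all tested genes were higher and 20.8% lower. Mbtps2, which encodes the second protease that frees SREBP, rose by 0.35 (adjusted p = 0.0154), with overlap between the groups. Its call was lost with the Ddx3y covariate (0.32, adjusted p = 0.12) and in libraries without Xist (0.31, adjusted p = 0.0966). By the exact permutation test it was not called either (adjusted p = 0.0586). Insig2, the relative of Insig1, fell by 0.54 (adjusted p = 0.00995), a call lost over nuclear genes (-0.26, adjusted p = 0.199), with the Y-linked Ddx3y as covariate (-0.58, adjusted p = 0.0526) and by the exact permutation test (adjusted p = 0.0586). The ubiquitin ligase gene Rnf139 fell by 0.20 (adjusted p = 0.0486), a call lost without any 1 of cKO replicates 1, 3, 5 and 6 and control replicates 4, 6 and 9. The count of higher genes was 2 without cKO replicate 3 or 7 or control replicate 6 or 9, and 3 without cKO replicate 6. It was 0 with the Ddx3y covariate, in libraries without Xist and by the exact permutation test. As deposited Insig2 and Rnf139 stood at 0.18 and 0.46, and 9 of the 10 genes were called higher, where 76.5% of all tested genes were.

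Of 15 tested genes of lipoprotein uptake and sterol egress, 4 were higher, 2 lower and 9 not called on scaled values (median 0.16), against 20.8% of all tested genes in each direction. As deposited 14 were higher, against 76.5% of all tested genes. The lysosomal cholesterol carrier gene Npc2 rose by 0.79 (adjusted p = 2.71e-05), the endocytic receptor gene Lrp1 by 0.80 (adjusted p = 0.000253) and the lysosomal acid lipase gene Lipa by 0.53 (adjusted p = 0.00104). The ubiquitin ligase gene Mylip, named after its values were seen, rose by 0.52 (adjusted p = 0.00491). Its call was lost with the Ddx3y covariate (0.42, adjusted p = 0.0835) and in libraries without Xist (0.41, adjusted p = 0.0835). The 2 lower genes, named after their values were seen, were Vldlr (-0.24, adjusted p = 0.0320) and Gramd1b (-0.45, adjusted p = 0.0262). As deposited Vldlr was called higher (0.48, adjusted p = 0.00096) and Gramd1b stood at 0.12. Neither was called lower with no filter, with the Ddx3y covariate or by the exact permutation test. Their count was 0 without cKO replicate 1 or control replicate 4 or 8, and 1 without cKO replicate 5, 6 or 7 or control replicate 9.

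Among 10 tested genes of efflux, storage and oxysterols, 3 were higher, 2 lower and 5 not called on scaled values, near the 20.8% of all tested genes in each direction. Apoe, which encodes the apolipoprotein that carries exported cholesterol, went from 181 ± 19.6 to 440 ± 61.1 scaled TPM (SD, n = 5, adjusted p = 2.87e-06). Cyp27a1, a sterol hydroxylase gene, and the transporter gene Abca2 rose by 0.81 and 0.72 (adjusted p = 0.000615 and 0.00233). The call of Abca2 was lost with the Ddx3y covariate (0.58, adjusted p = 0.055) and in libraries without Xist (0.58, adjusted p = 0.0761). The cholesteryl ester hydrolase gene Nceh1 fell by 0.26 (adjusted p = 0.0162) but stood at 0.46 as deposited. The other lower gene, Osbpl8, was named after its values were seen (-0.22, adjusted p = 0.0375) and was called higher as deposited (0.48, adjusted p = 0.00273), and 1 gene of the list was lower without any 1 library other than control replicate 13. In the isoprenoid branch that leaves the pathway before squalene, limma called 0 of 11 higher (1 at an unadjusted p under 0.05, and 1 by the exact permutation test), 4 lower and 7 not called, against 20.8% of all tested genes in each direction. Pdss1 and Pdss2, which build the side chain of coenzyme Q, fell by 0.98 and 0.87 (adjusted p = 2.34e-06 and 5.05e-05), Coq2 by 0.54 (adjusted p = 0.00088) and Nus1 by 0.31 (adjusted p = 0.00691). As deposited Pdss1 was at -0.30 and Pdss2 at -0.23, whereas Coq2 and Nus1 were at 0.17 and 0.38.

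Genes of fatty acid synthesis that SREBP-1 is known to drive went both ways, with 7 higher, 4 lower and 2 not called of 13 tested on scaled values (median 0.30), against 20.8% of all tested genes in each direction. Me1, which encodes an enzyme that supplies NADPH, rose by 1.07 (adjusted p = 1.27e-05) and the acetyl-CoA carboxylase gene Acaca by 0.66 (adjusted p = 0.00017). The muscle-type carboxylase gene Acacb fell by 0.83 (adjusted p = 5.1e-05) and the elongase gene Elovl5 by 0.62 (adjusted p = 7.94e-05), and as deposited they were at -0.12 and 0.085.

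Markers of other cell types differed between the same groups. For comparison, 20.8% of all tested genes were called higher and 20.8% lower on scaled values. As deposited these shares were 76.5% and 3.46%. Of 8 tested macrophage markers 7 were called higher on scaled values and 8 as deposited, and their summed scaled TPM was 88.4 to 100.3 in controls against 294 to 421 in cKO. Fibroblast markers had 7 of 8 higher and 1 lower on scaled values and 7 higher as deposited (summed 915 to 1086 against 1382 to 1702). Ventricular cardiomyocyte markers fell in 8 of 8 on scaled values, while as deposited 3 of 8 were lower and 2 had a positive log2 fold change (summed scaled TPM 34230 to 36956 against 18450 to 23776). Endothelial markers fell in 8 of 8 on scaled values, with a median of -0.54, but as deposited none was called and the median was 0.17. Of 7 mural markers 2 were higher and 2 lower on scaled values. Few markers of fat (1 lower of 1 tested), lymphocytes (Ptprc alone, higher), Schwann cells (1 tested, not called) and erythroid cells (4 tested, not called, 1 higher at an unadjusted p under 0.05) passed the filter. Of 6 cycling-cell markers, limma called 0 either way on scaled values (0 also at an unadjusted p under 0.05 and by the exact permutation test) and 6 higher as deposited. No listed marker was at 0 in all libraries. The part of these cell types in the rise of the 8 members was not tested. In the 7 libraries without Xist (2 cKO and 5 control, chosen after seeing the data), 7 of 7 tested members were called higher. Of all 12172 genes tested there, 1392 were called higher. The members' log2 fold changes there ran from 0.49 (Hmgcs1, adjusted p = 0.00231) to 1.61 (Cyp51, adjusted p = 2.06e-05). Lss did not pass the filter there.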

How the data were processed

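RNA of 10 heart samples (5 cKO, 5 control) was made into libraries with a VAHTS Universal V10 kit from total RNA, as the labels' protocols state. The authors deposited 1 table of TPM. Per the submitters' processing notes, which give neither roles nor order, the authors used DESeq2 1.22.2, HTSeq 0.11.2, Picard 1.96, STAR 2.7.1, FastQC 0.11.7, Trimmomatic 0.32 and bcl2fastq on build mm10. The annotation release, gene lengths and strand setting are unknown here. TPM keeps no depth, so the reads behind each value are unknown. No pair of libraries held identical values. The labels do not say whether replicates are separate animals, so p-values measure only the spread between these samples, which may be technical.

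A size factor per library was taken as the median of ratios over 16393 genes above 0 in all libraries, and TPM was divided by it. Genes with at least 1 TPM in at least 5 libraries were tested as log2(scaled TPM + 1), so a fold change of a low gene is understated. Limma 3.58.1 in R 4.3.3 was used (moderated variance with a trend, two-sided), with Benjamini-Hochberg adjustment over all 13282 genes, and every adjusted p is from it unless named otherwise. The fit was tested on simulated data. Single values were compared by an exact permutation test over 252 assignments. Other steps ran in Python 3.11.15 (scipy 1.17.1, pandas 2.3.3, numpy 2.4.6). Promoter windows are RefSeq's on GRCm38.p6, the assembly also called mm10, and gene positions are those of GENCODE M21, where all 8 members matched by gene ID.

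The members and lists were chosen with earlier results of these data known. Genes named were the members, up to 4 genes per list with the smallest adjusted p, Chmp4b and the 5 genes most like the members. Some genes covered by this rule or the lists are not reported here and were left out of the counts of lists, but not of the fit over all genes.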

Additional observations from a re-analysis of the deposited data

Results flagged for a closer look

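In a check of each group of 5 libraries for 1 value far from the others, 9 of 86 groups (43 genes) were marked. Chance marks about 1 in 20 of independent groups, but these genes share libraries. They also include the 5 genes picked because they followed the members, so the count cannot be read against that share. In cKO replicate 5, Idi1 was at 36.6 scaled TPM (the others at 22.3 to 23.8) and Sqle at 12.1 (8.03 to 9.17). Tnc was at 12.7 (8.60 to 9.49) and Mob1a at 17.8 (14.4 to 15.3) in the same library. In cKO replicate 1, Insig2 was at 26.4 scaled TPM (17.9 to 19.8). In cKO replicate 7, Npc2 was at 36.5 (28.7 to 30.9) and Cyp27a1 at 18.9 (11.5 to 13.6). Among controls, Tm7sf2 was at 4.64 in replicate 4 (3.40 to 3.75) and Osbpl8 at 17.1 in replicate 13 (21.01 to 22.6).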

How the results depend on the processing

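Over 23 alternatives, all 182 recomputed values of the 8 members kept their direction and their call, and Lss was not tested in 2 settings, with a minimum of 5 TPM and in libraries without Xist. Cyp51 ranged from 1.61 to 2.43 and Hmgcs1 from 0.49 to 1.33, the highest as deposited, and the largest adjusted p of any member was 0.0425 (Lss). Over all genes, 2763 were higher and 2766 lower. As deposited these were 10160 and 460, over nuclear genes 6064 and 1373 (median gene at 0.28), with the Y-linked Ddx3y as covariate 1641 and 1774, and in libraries without Xist (chosen after seeing the data) 1392 and 1803. Of the 13 other synthesis enzymes, 6 were higher on scaled values, 12 as deposited and 11 over nuclear genes. Without a variance trend, with library weights and by the exact permutation test 1 was lower (Tm7sf2), and leaving out 1 library gave 0 to 1 (Pmvk, without control replicate 6). The smaller lists moved as well: over nuclear genes 8 SREBP processing, 11 uptake, 5 efflux and 3 isoprenoid genes were higher (1, 4, 3 and 0 on scaled values), and with the covariate 0 SREBP processing genes were called either way and 4 fatty acid genes were higher (7 on scaled values). With library weights 4 SREBP processing genes were higher. As deposited and over nuclear genes 0 of the SREBP processing, uptake and efflux genes were lower. Signs turned as deposited for Insig2 (0.18), Rnf139 (0.46), Nceh1 (0.46), Coq2 (0.17), Nus1 (0.38), Elovl5 (0.085), Tm7sf2 (0.25), Pmvk (0.48), Vldlr (0.48), Gramd1b (0.12) and Osbpl8 (0.48), and over nuclear genes for Rnf139 (0.062), Nceh1 (0.027), Pmvk (0.083), Vldlr (0.045) and Osbpl8 (0.059). Dedd turned to -0.12 with the covariate, -0.11 in libraries without Xist, and ranged from -0.036 (without cKO replicate 5) to 0.14 on leaving out 1 library. Of 778 values of 34 other named genes, 684 kept direction and call and 63 lost the call. Rnf139 lost its call on leaving out any of 7 single libraries, and Mbtps2, Insig2 and Nceh1 lost theirs by the exact permutation test and with the covariate, where their values were 0.32, -0.58 and -0.27 (0.35, -0.54 and -0.26 without it). The cause was not tested. No paired analysis was possible because the groups share 1 replicate number, 6. The depth behind low values such as Lss is unknown. Matches in the 250 bases before the start alone gave the same 6 of 6 members for CCAAT and GGGCGG.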
